A study of Homo sapiens
Mus musculus with 24 samples.

Results

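The effect of moringa concentrate (MC) on tumors of obese mice was examined in 9 of the 24 libraries of the series, 5 from MC mice (numbers 6, 41, 42, 48 and 59) and 4 from vehicle control (CTRL) mice (17, 31, 44 and 70). The members were chosen by their sample titles alone, and each library was made from the tumor of a different mouse. All 9 animals were female B6/Rag1KO mice on a high-fat diet, and each carried an MDAMB231 xenograft placed under the skin near the neck at 14 weeks of age, in Matrigel with Collagen I. Once tumors had reached about 200 mm3, the mice were assigned for 4 weeks to the high-fat diet with weekly saline injections (CTRL) or to the same diet with 0.6% MC by weight (MC). Saline is named for CTRL and is not mentioned for MC, so that injection and diet cannot be told apart. The 5 Chemo and 6 MC + Chemo tumors of the series entered the fits as further groups that share the estimate of the spread, and they supply the interaction given last. All mice lack mature T and B lymphocytes through loss of Rag1, in CTRL as in MC, and every tumor is labelled as grown from the same cell line.

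MDA-MB-231 is a triple-negative human breast cancer line with a mesenchymal character. Moringa oleifera seeds are rich in glucosinolates, and the concentrate was enriched in the isothiocyanate MIC-1. Isothiocyanates as a class are known to activate NRF2, a transcription factor that drives detoxifying and antioxidant enzymes. In a xenograft, the tumor cells are human while vessels, blood, fibroblasts, macrophages and any adjoining fat or muscle are murine, so the genome to which a read maps is used to tell tumor from host, with exceptions given near the end. In such bulk libraries fewer cells of a type and less RNA per cell cannot be told apart.

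The libraries were QuantSeq 3′ libraries, which count the ends of polyadenylated transcripts, and 1 count table was deposited for each genome. Murine counts per library ran from 5005233 to 7919564 in CTRL and from 4058787 to 9892470 in MC. Human counts per library ran from 9447791 to 14107092 in CTRL and from 7796231 to 17621273 in MC. The level of a gene in a library is given below as a normalized count. It is the raw count scaled here for depth (TMM) but not for gene length. Fold changes are log2 values of MC over CTRL from edgeR with their standard error (SE), and a positive value means higher in MC. No library duplicated another.

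Several libraries stood apart from their groups. Genes of skeletal muscle (fast fibre, slow fibre and sarcomere lists) made up 0.835% of the murine counts of MC 41 and 0.374% of those of MC 48, against 0.00905% to 0.0158% in the other 7 libraries. Brown adipocyte genes made up 0.688% in MC 41 and 0.215% in MC 6, against 0.00874% to 0.0173% elsewhere. Genes encoded by mitochondrial DNA made up 17.1% in MC 41 and 7.89% in MC 6, against 0.854% to 2.00% elsewhere. MC 41 and MC 42 were also the libraries of these groups whose RNA had an additional column cleanup. Among the CTRL libraries, CTRL 17 held 117 normalized counts of Pecam1 against 689 to 930 in the other 3. In their human counts CTRL 17 and CTRL 44 differed from the remaining libraries in some epithelial and mesenchymal genes, as described below. Values without MC 6, MC 41 and MC 48, or without CTRL 17 and CTRL 44, are given beside results that rest on them. The former fits keep 2 MC libraries and the latter 2 CTRL libraries. Counts of genes at a low p in them thus also reflect the smaller groups.

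**Figure D1:**
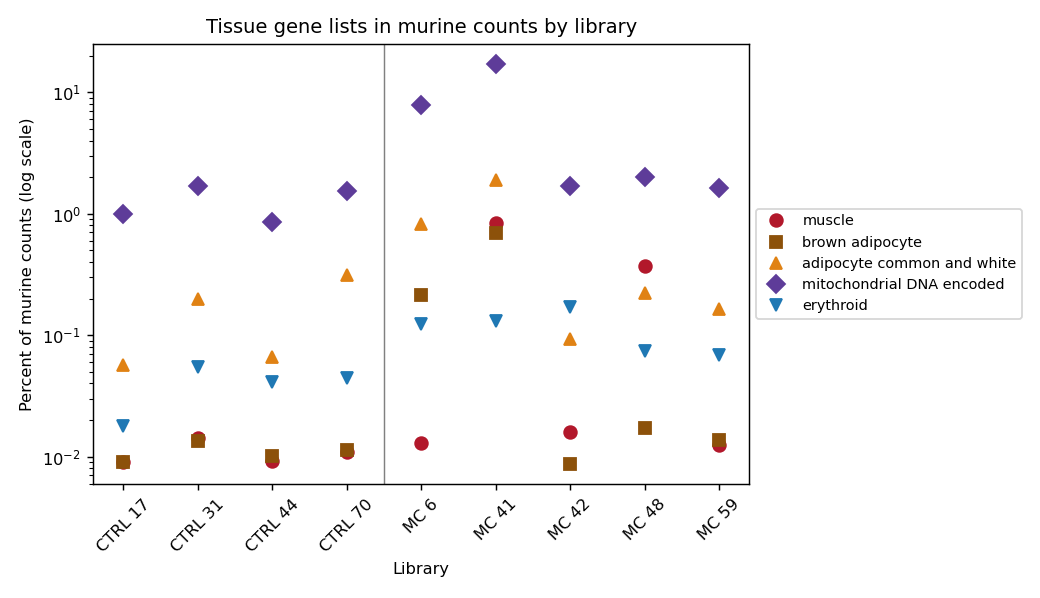
Share of murine counts held by 5 lists of tissue genes in each CTRL and MC library, in percent on a log axis. MC 41 was highest for muscle (0.835%), brown adipocyte (0.688%) and mitochondrial DNA genes (17.1%), MC 6 was second for the latter pair and MC 48 second for muscle, while the erythroid points of all 5 MC libraries lay above all 4 CTRL points.

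Among host (murine) genes the larger differences were in muscle, brown fat and mitochondrial genes, and 0 of the 15011 genes tested passed the 3 criteria of the study by edgeR (an adjusted p under 0.05, more than 30 normalized counts on average and a fold difference above 1.5). The lowest adjusted p was 0.242, and 1767 genes (11.8%) had an unadjusted p below 0.05, of which 1310 (8.73%) were higher and 457 (3.04%) lower in MC. With limma voom and sample weights the count past the criteria was also 0, with 1386 genes at an unadjusted p below 0.05, 627 higher and 759 lower. With DESeq2, the tool of the study, 234 genes (1.56%) passed, 225 higher (1.5%) and 9 lower (0.06%). Scaling by total counts moved the median of all murine genes to −0.14 and turned the unadjusted split to 679 higher and 839 lower.

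The 225 murine genes that were higher by DESeq2 had their highest value in MC 41 in 222 cases, in MC 6 in 2 and in MC 59 in 1. Their median log2 fold change was 2.48 with all libraries and 0.18 without MC 6, MC 41 and MC 48. Without those 3 libraries 166 of the 225 were under 1.5-fold and 62 were on the other side of 0. The 9 lower genes had medians of −0.68 and −0.63. DESeq2 passed 0 murine genes without MC 6 and MC 41, 0 without MC 6, MC 41 and MC 48, and 5 without CTRL 17 and CTRL 44. By edgeR 356 genes had an unadjusted p below 0.05 without the 3 MC libraries, 167 higher and 189 lower. Without MC 41 alone there were 751.

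Skeletal muscle genes were high in 2 of the 5 MC tumors. All 20 fast fibre genes, all 9 slow fibre genes tested and all 18 sarcomere and triad genes were higher in MC on average, with median log2 fold changes of 5.77, 5.05 and 4.55, against 0.00053 for all murine genes tested. An unadjusted edgeR p below 0.05 was reached by 20, 8 and 17 of them, against 8.73% of all murine genes. Acta1, the actin of skeletal muscle fibres, had 24.2, 36.2, 29.0 and 19.3 normalized counts in CTRL 17, 31, 44 and 70. In MC 6, 41, 42, 48 and 59 it had 37.2, 12611, 36.8, 3161 and 15.1. Only MC 41 and MC 48 lay far above CTRL, and the groups overlapped. The log2 fold change of Acta1 was 6.87 (SE 2.39, edgeR adjusted p = 0.279), and 0.01 without MC 6, MC 41 and MC 48. Tnnc2 and Tnnt3, troponin subunits of fast fibres, followed the same libraries, with 3921 and 4479 normalized counts in MC 41, 1528 and 970.5 in MC 48, and at most 32.97 and 31.7 in the other 7. Without the 3 libraries the medians of the 3 lists were 0.33, 0.16 and 0.25. Of the list of myogenic regulators and embryonic myosins, which marks forming rather than mature muscle, 1 gene was tested, and its fold change was −0.23.

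Adipocyte genes were high in MC 6 and MC 41, with the brown fat genes above the white. All 18 common adipocyte genes and 10 lipogenesis genes were higher in MC, with medians of 3.21 and 2.83, as were 13 of 15 brown adipocyte genes (median 4.50) and 5 of 7 white adipocyte genes (median 0.93). Ucp1, the uncoupling protein that makes heat in brown fat, had 29.2, 7.04, 85.7 and 16.6 normalized counts in CTRL 17, 31, 44 and 70. It had 5741 in MC 6, 27980 in MC 41, and 21.6, 53.1 and 15.1 in MC 42, 48 and 59. The last 3 lay within the CTRL range. Cidea, a lipid droplet protein, and Cox8b, a cytochrome oxidase subunit of brown fat and muscle, reached 11072 and 8092 in MC 41 and 2538 and 1765 in MC 6.

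Fabp4, the fatty acid binding protein of adipocytes, had 330 to 4580 normalized counts in CTRL. In the MC group it ran from 1371 to 50440, with MC 6 (17518) and MC 41 above every CTRL library and the other 3 inside the CTRL range. Fasn, fatty acid synthase, had 179 to 341 in CTRL and 172 to 221 in MC 42, 48 and 59, against 4157 in MC 6 and 18404 in MC 41. Leptin (Lep), a hormone of white fat cells, ranged from 0 to 74.6 in CTRL and from 5.71 to 317 in MC, and its log2 fold change was 1.30 (SE 1.33, edgeR adjusted p = 0.730). Without MC 6, MC 41 and MC 48 the list medians were −0.35 for common adipocyte, −0.20 for lipogenesis, −0.07 for brown and −0.74 for white adipocyte genes.

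Genes of mitochondrial respiration and fat burning were higher in the same tumors. All 18 fatty acid oxidation genes (median 2.69), all 14 genes of the tricarboxylic acid cycle (1.99), all 8 measured genes of mitochondrial DNA (2.29), all 26 complex I subunits (1.24) and 36 of 39 genes of complexes II to V (1.37) were higher in MC. The gene mt-Nd4, a mitochondrially encoded complex I subunit, had 20167, 35846, 18573 and 25411 normalized counts in CTRL 17, 31, 44 and 70 and 233866, 594989, 40608, 46347 and 42257 in MC 6, 41, 42, 48 and 59. The groups did not overlap, and its log2 fold change was 2.94 (SE 0.69, edgeR adjusted p = 0.242) with all libraries and 0.73 without MC 6, MC 41 and MC 48. The other mitochondrial genes of high count, mt-Nd2 and mt-Cytb, overlapped CTRL and gave 0.13 and 0.18 without those libraries. Reads of mitochondrial genes can also match nuclear copies, so single members are uncertain.

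Acadl, which opens the oxidation of long-chain fatty acids, had 287 to 456 normalized counts in CTRL. It had 3375 in MC 6, 11847 in MC 41, and 472, 519 and 493 in MC 42, 48 and 59, so the groups did not overlap and the 3 lower MC values lay just above CTRL. Hadha, a subunit of the trifunctional enzyme of the same pathway, was also above CTRL in every MC library (465 to 8782 against 368 to 450). Pdk2, a kinase that switches off pyruvate dehydrogenase, Cycs (cytochrome c) and Miga2, which acts in mitochondrial fusion, did not overlap either. Their log2 fold changes were 3.03, 2.30 and 2.42 with all libraries and 0.56, 0.54 and 0.76 without MC 6, MC 41 and MC 48. Sbk1, a protein kinase, gave 1.53 and 0.58. Over all murine genes tested, 199 (1.33%) were higher in every MC library than in any CTRL library and 117 (0.779%) were lower, and 104 (0.693%) and 29 (0.193%) also had a mean count above 30 and a fold above 1.5.

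**Figure D2:**
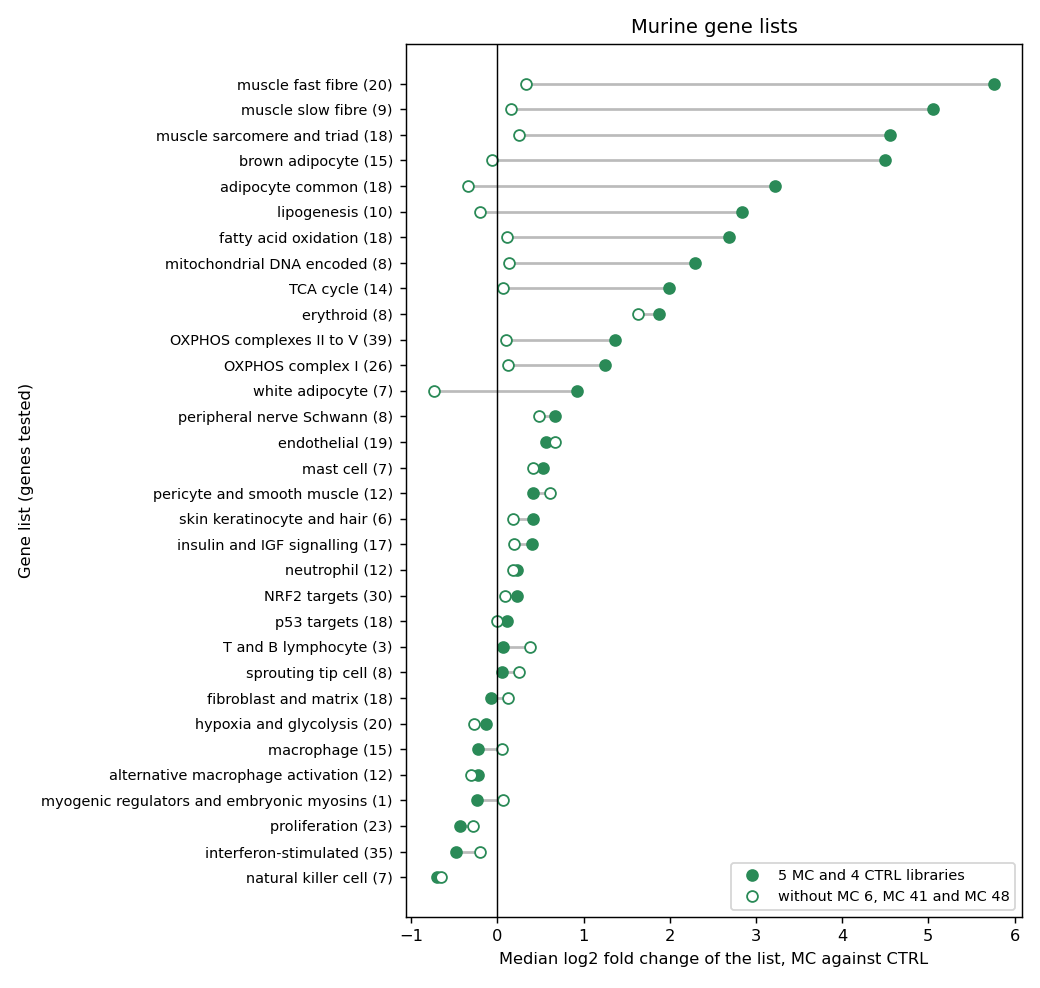
Median log2 fold change, MC against CTRL, of each murine gene list with all 9 libraries (filled) and without MC 6, MC 41 and MC 48 (open), with the number of genes tested in brackets. Muscle fast fibre went from 5.77 to 0.33 and brown adipocyte from 4.50 to −0.07, while erythroid went from 1.87 to 1.63.

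A smaller set of host genes differed between the groups with little weight on these 3 tumors. Smad6, an inhibitor of bone morphogenetic protein signaling that vessels express, had 22.2, 53.3, 38.2 and 32.0 normalized counts in CTRL 17, 31, 44 and 70. It had 99.6, 93.3, 74.8, 67.5 and 68.5 in MC 6, 41, 42, 48 and 59. Every MC library was above every CTRL library. The log2 fold change was 1.15 (SE 0.23, edgeR adjusted p = 0.242; DESeq2 adjusted p = 0.00227), and 0.98 without MC 6, MC 41 and MC 48.

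Btbd6, a BTB-domain protein, had 20.2, 22.1, 26.4 and 20.6 normalized counts in CTRL and 28.7, 81.2, 40.6, 45.9 and 58.9 in MC 6, 41, 42, 48 and 59. Its log2 fold change was 1.20 (SE 0.26, edgeR adjusted p = 0.242) and 1.15 without the 3 libraries. Zhx2, a transcriptional repressor, had 31.2 to 37.2 in CTRL and 45.01 to 83.0 in MC, and its log2 fold change was 0.96 (SE 0.22) and 0.63 without them. All 3 genes were above CTRL in every MC tumor, which was a condition for naming them here, and DESeq2 passed all 3.

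The lower genes had small and even differences. Exoc2, a subunit of the exocyst that tethers secretory vesicles, had 116, 103, 120 and 121 normalized counts in CTRL 17, 31, 44 and 70 and 65.9, 93.3, 74.2, 61.2 and 72.6 in MC 6, 41, 42, 48 and 59. It gave −0.64 (SE 0.15, edgeR adjusted p = 0.242), the same without MC 6, MC 41 and MC 48. Gcfc2 had 54.03 to 74.6 in CTRL and 31.5 to 45.9 in MC (−0.82, SE 0.20). The lowest CTRL value of each lay above the highest MC value, likewise a condition for naming them.

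Frmd4a, a scaffold of cell polarity, had 331 to 477 normalized counts in CTRL and 202 to 294 in MC (−0.65, SE 0.17). Rbl1, a pocket protein related to the retinoblastoma protein, had 85.2 to 109 in CTRL and 49.4 to 68.5 in MC (−0.66, SE 0.19). The identifier ENSMUSG00000082292, which the tables give no symbol, had 97.9 to 145 in CTRL and 32.1 to 83.7 in MC. These 5 lower genes passed under DESeq2. Ctbs, a lysosomal enzyme, Zup1, a ubiquitin peptidase, Pibf1, a centrosomal protein, Rab27a, a small GTPase of vesicle release, and Hat1, a histone acetyltransferase, were also lower without overlap. Their log2 fold changes ran from −0.75 to −0.60 and did not pass under DESeq2. Without MC 6, MC 41 and MC 48 those of Hat1 and Ctbs were −0.29 and −0.32, and the other 3 ran from −0.71 to −0.53.

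**Figure D3:**
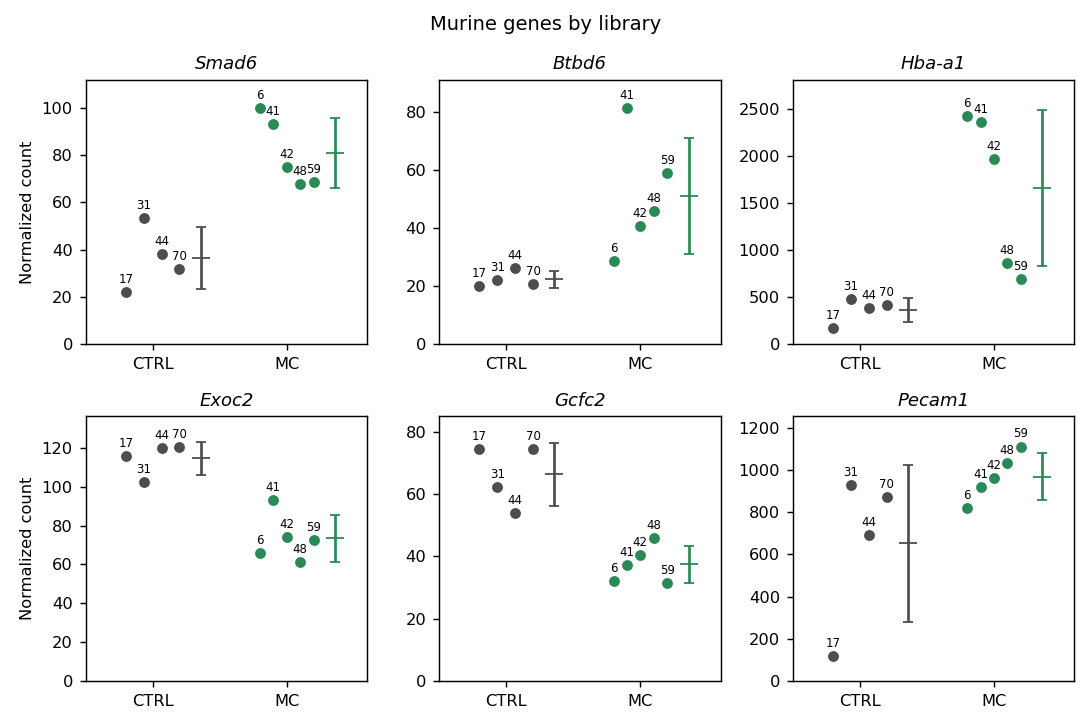
Normalized counts of 6 murine genes in each CTRL and MC library, numbered by mouse, with the mean and SD of each group beside the points. Smad6, Btbd6 and Hba-a1 were higher and Exoc2 and Gcfc2 lower in every MC library than in any CTRL library. Pecam1 overlapped because CTRL 31 (930) and CTRL 70 (870) reached the MC values, while CTRL 17 (117) lay far below them.

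Globin transcripts, which come from red cells and their precursors, were higher in MC on average. Of the 4 murine globin genes described, 3 were higher in every MC tumor than in any CTRL tumor, against 1.33% of all murine genes. Lack of overlap was a condition by which Hba-a1 was named here, and Hba-a2 is a near-identical copy. The 3 are therefore not independent, and setting them beside that share is no test. Hba-a1, an alpha globin gene, had 176, 478, 384 and 421 normalized counts in CTRL 17, 31, 44 and 70 and 2419, 2355, 1968, 858 and 696 in MC 6, 41, 42, 48 and 59. The groups did not overlap, and MC 6, 41 and 42 were higher than MC 48 and 59. Its log2 fold change was 2.19 (SE 0.49, edgeR adjusted p = 0.242; DESeq2 adjusted p = 0.00283), and 1.86 without MC 6, MC 41 and MC 48 as well as without CTRL 17 and CTRL 44. Hbb-bs, the main adult beta globin gene, had 370, 1342, 1396 and 949 in CTRL and 3385, 6317, 5051, 1817 and 1873 in MC. Its lowest MC value lay above its highest CTRL value, and its log2 fold change was 1.86 (SE 0.53). Hba-a2 followed without overlap (118 to 371 against 515 to 1662), and Hbb-bt and Alas2, the first enzyme of heme synthesis in red cells, overlapped and gave 1.89 and 1.88. The near-identical globin copies can share reads, so the split between them is uncertain. All 8 erythroid genes tested were higher in MC, with a median of 1.87. An unadjusted edgeR p below 0.05 was reached by 5 of them, against 8.73% of all murine genes. Without MC 6, MC 41 and MC 48 the median was 1.63, and 5 again reached it, against 167 of 15591 murine genes. The murine globins were named by the study from these samples, which is no independent choice. The amount of blood left in the tissue was not measured.

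Vessel genes were higher in MC on average, largely through CTRL 17. Pecam1, the endothelial adhesion molecule CD31, had 117, 930, 689 and 870 normalized counts in CTRL 17, 31, 44 and 70 and 817, 920, 964, 1033 and 1111 in MC 6, 41, 42, 48 and 59. The CTRL mean was 652 ± 371 and the MC mean 969 ± 111 (SD, n = 4 and 5). CTRL 31 and CTRL 70 lay within the MC range, CTRL 44 below it and CTRL 17 far below. The log2 fold change was 0.57 (SE 0.38, edgeR adjusted p = 0.572), 0.21 without CTRL 17 and 0.09 without CTRL 17 and CTRL 44. The study stained tumor sections for CD31 protein and reported less of it in MC than in CTRL. The Pecam1 counts here are RNA, a different measure. All 19 endothelial genes tested were higher in MC, with a median of 0.57 and 0 at an unadjusted p below 0.05, and the median was 0.21 without CTRL 17. Flt1 and Kdr, receptors for VEGF, had 243 and 213 in CTRL 17, against 782 to 1384 and 767 to 1074 in the other CTRL tumors. Their MC values were 1259 to 1542 and 944 to 1310. Plvap, of fenestrated endothelium, and Egfl7 had 86.7 and 53.4 in CTRL 17. The tip cell list, which marks sprouting vessels, had a median of 0.06 with 5 of 8 genes higher.

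Mural cell genes behaved likewise. Of 12 pericyte and smooth muscle genes 10 were higher in MC (median 0.41, 0.07 without CTRL 17 and −0.22 without CTRL 17 and CTRL 44). Kcnj8, a potassium channel of pericytes chosen here after its values were seen, had 8.06, 60.3, 34.3 and 80.6 normalized counts in CTRL and 98.6 to 138 in MC, without overlap. Its log2 fold change was 1.22 (SE 0.38, edgeR adjusted p = 0.251) and 0.60 without CTRL 17 and CTRL 44. Rgs5, another pericyte gene, had 165 in CTRL 17, 1359 to 3666 in the other CTRL tumors and 2527 to 3271 in MC. The fibroblast and matrix list showed no shift, with 7 of 18 genes higher and a median of −0.08.

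Of the host immune lists, that of natural killer cells had the median farthest from 0 with all libraries. The other medians were −0.22 for 15 macrophage genes (3 higher), −0.23 for 12 genes of alternative macrophage activation (3 higher), 0.23 for 12 neutrophil genes (7 higher) and 0.53 for 7 mast cell genes (6 higher). Among them 1 gene had an unadjusted edgeR p below 0.05, against 11.8% of all murine genes in either direction. Retnla, an alternative activation marker, had 4125, 437, 888 and 903 normalized counts in CTRL 17, 31, 44 and 70 and 211, 743, 895, 1221 and 289 in MC. Only CTRL 17 lay outside the MC range. Of the natural killer list 6 of 7 genes were lower in MC (median −0.70), 3 of them at an unadjusted edgeR p below 0.05 against 3.04% of all murine genes. Without MC 6, MC 41 and MC 48 the median was −0.65 with 6 of 7 lower, and 0 had an unadjusted p below 0.05 with 2 MC libraries left. Klre1, a receptor of natural killer cells chosen after its values were seen, had 34.2 to 55.4 in CTRL and 1.69, 20.5, 28.5, 18.9 and 17.8 in MC 6, 41, 42, 48 and 59, without overlap. Gzmb, a cytotoxic granule protease also chosen in that way, had 109 in CTRL 17, 16.1 to 43.5 in the other CTRL tumors and 3.73 to 32.97 in MC. Of 13 T and B lymphocyte markers 4 were in the table and 3 were tested, with a median of 0.07.

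Interferon-stimulated genes of the host were lower in 34 of 35 cases (median −0.48), and 4 had an unadjusted edgeR p below 0.05, against 3.04% of all murine genes. CTRL 17 was the highest library for this list, and the median was −0.20 without it and −0.21 without MC 6, MC 41 and MC 48. Cxcl10, an interferon-induced chemokine, had 1523 normalized counts in CTRL 17, 423 to 634 in the other CTRL tumors and 203 to 666 in MC. Oasl2, an antiviral enzyme-like protein, had 604 to 1153 in CTRL and 353 to 833 in MC (−0.48, SE 0.28).

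Host proliferation genes were lower in 22 of 23 cases, with a median of −0.44, and 7 had an unadjusted edgeR p below 0.05 against 3.04% of all murine genes. Without MC 6, MC 41 and MC 48 the median was −0.29 with 18 of 23 lower and 0 at an unadjusted p below 0.05, and without CTRL 17 and CTRL 44 it was −0.24. The examples from here to the end of the paragraph, other than Top2a, were chosen after their values were seen. Mki67, the Ki-67 antigen, had 172, 168, 232 and 161 normalized counts in CTRL 17, 31, 44 and 70 and 94.6, 91.4, 146, 118 and 142 in MC 6, 41, 42, 48 and 59, with every MC library below CTRL. Cdk1, the mitotic kinase, had 143 to 187 in CTRL and 69.0 to 138 in MC. Ccnb1, its cyclin partner, had 106 to 142 in CTRL and 54.05 to 98.6 in MC. Neither gene overlapped, and their log2 fold changes were −0.53 (SE 0.22) and −0.67 (SE 0.27). Ccna2, cyclin A, gave −0.76 (SE 0.22, edgeR adjusted p = 0.242) with overlap. Top2a, the topoisomerase of dividing cells, had 692 to 2052 in CTRL and 600 to 991 in MC and overlapped as well.

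Of 30 host NRF2 target genes 22 were higher in MC (median 0.23), and 7 had an unadjusted edgeR p below 0.05, against 8.73% of all murine genes. Without MC 6, MC 41 and MC 48 the median was 0.09 and none did. Cbr1, a carbonyl reductase, had 112 to 163 normalized counts in CTRL and 263, 656, 176, 189 and 190 in MC 6, 41, 42, 48 and 59, and Srxn1 (sulfiredoxin) had 130 to 161 and 174 to 396. Both were chosen after their values were seen. Every MC library lay above CTRL for both, MC 41 was highest, and their log2 fold changes were 1.11 (SE 0.37) and 0.73 (SE 0.23), and 0.42 and 0.38 without the 3 libraries. Of 18 p53 targets 12 were higher (median 0.11), among them Phlda3, chosen likewise, with 84.7 to 166 in CTRL and 177 to 714 in MC. The hypoxia and glycolysis list had a median of −0.13 (7 of 20 higher) and the insulin and IGF list 0.40 (16 of 17 higher). Of the latter, 2 had an unadjusted edgeR p below 0.05, against 8.73% of all murine genes. Its median was 0.19 without MC 6, MC 41 and MC 48 and 0.14 without CTRL 17 and CTRL 44. The skin keratinocyte and Schwann cell lists had medians of 0.41 (4 of 6 higher) and 0.66 (6 of 8).

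Other host genes that the study names, Mmp8, Mmp12, Mmp13, Cyp2e1 and Foxo6, overlapped between the groups. Mmp8, the neutrophil collagenase, had 7.06 to 16.1 normalized counts in CTRL and 8.44 to 23.3 in MC. Mmp12, the macrophage elastase, had 524 to 789 in CTRL and 243, 212, 454, 411 and 644 in MC 6, 41, 42, 48 and 59 (−0.81, SE 0.36, edgeR adjusted p = 0.379). Mmp13, an interstitial collagenase, ran from 2044 to 7113 in CTRL and from 393 to 3051 in MC, with MC 41 lowest. Cyp2e1, a cytochrome P450 that fat and liver express, had 2.02 to 9.23 in CTRL, 22.0 in MC 6, 71.8 in MC 41 and 5.07 to 8.10 in the others. Foxo6, a forkhead factor of insulin signaling, had 54.4, 73.4, 58.0 and 35.96 in CTRL and 71.0 to 84.9 in MC (0.47, SE 0.27).

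Of 16434 human (tumor) genes 0 passed the 3 criteria by edgeR, with a lowest adjusted p of 0.406 and 1762 genes (10.7%) at an unadjusted p below 0.05, 788 higher (4.79%) and 974 lower (5.93%). By limma voom 0 passed, with 1315 at an unadjusted p below 0.05. DESeq2 passed 10 (0.0608%), of which 9 were higher (0.0548%) and 1 lower (0.00608%) in MC. The unadjusted edgeR count was 929 without CTRL 17, 3314 without CTRL 31 and 2678 without CTRL 70. Scaling by total counts gave 510 higher and 1437 lower. Without overlap 120 genes were higher (0.73%) and 126 lower (0.767%), and 32 (0.195%) and 29 (0.176%) of these also met the fold and mean count criteria.

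The human markers showed a split within CTRL. VIM (vimentin), the filament of mesenchymal cells, had 77017, 11219, 53865 and 10522 normalized counts in CTRL 17, 31, 44 and 70 and 12401, 22074, 23400, 8279 and 8945 in MC 6, 41, 42, 48 and 59. CDH1 (E-cadherin), the adhesion molecule of epithelia, had 2.93, 3183, 335 and 3081 in CTRL and 1779, 2778, 3300, 2832 and 2550 in MC. CTRL 17 and CTRL 44 had high VIM with low CDH1, and CTRL 31, CTRL 70 and all MC tumors the reverse. EPCAM, an epithelial surface protein, had 79.1 and 592 in CTRL 17 and CTRL 44 against 2590 to 3495 in the other 7 libraries. ZEB1, a repressor of E-cadherin, had 1440 and 1476 against 196 to 445. These markers were picked with earlier results of these data known and do not stand for a whole list. Of 16 genes of the mesenchymal and breast line identity list, 8 were higher and 8 lower in MC (median 0.13). An unadjusted edgeR p below 0.05 was reached by 2 of the higher and 2 of the lower genes. The lowest log2 fold change in that list, −1.345, equaled that of VIM. MDA-MB-231 is known to lack E-cadherin, so CDH1 in 7 of the 9 libraries went clearly against the label of the line. CTRL 44 did not lack it either, and with 335 counts of CDH1 and 592 of EPCAM lay between these and CTRL 17. The comparison thus set 5 CDH1-high MC tumors against 2 CDH1-high and 2 CDH1-lower CTRL tumors. In the genes that follow this split, the difference over all 9 libraries mixes it with the diet. Without CTRL 17 and CTRL 44 only CDH1-high tumors are compared, with 2 CTRL libraries left. Without CTRL 17 and CTRL 44 the log2 fold change of VIM went from −1.34 to 0.47 and that of CDH1 from 0.68 to −0.24.

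**Figure D4:**
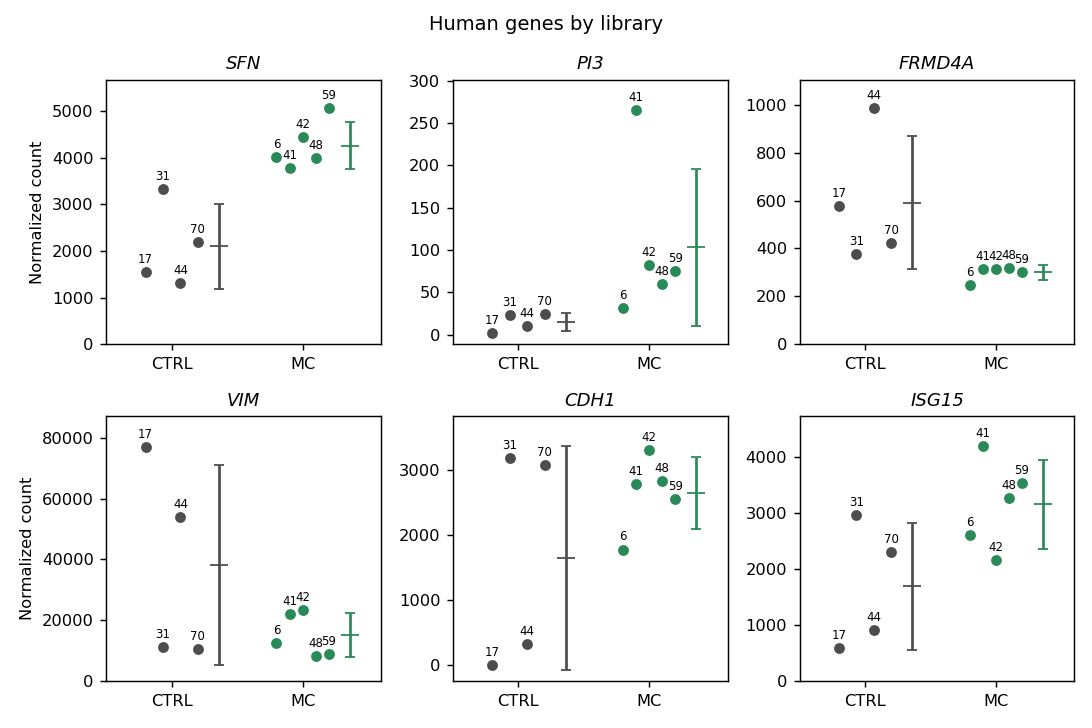
Normalized counts of 6 human genes in each CTRL and MC library, numbered by mouse, with the mean and SD of each group beside the points. SFN and PI3 were higher and FRMD4A lower in every MC library than in any CTRL library, while VIM, CDH1 and ISG15 set CTRL 17 and CTRL 44 apart from CTRL 31 and CTRL 70.

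Among the 9 human genes that DESeq2 passed as higher were SFN, PI3 and DIO2. SFN, the epithelial protein 14-3-3 sigma, had 1550, 3330, 1316 and 2185 normalized counts in CTRL 17, 31, 44 and 70 and 4020, 3784, 4435, 3988 and 5057 in MC 6, 41, 42, 48 and 59. All MC tumors were above all CTRL tumors. Its log2 fold change was 1.02 (SE 0.24, edgeR adjusted p = 0.406; DESeq2 adjusted p = 0.0401), and 0.63 without CTRL 17 and CTRL 44.

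PI3 (elafin), a secreted inhibitor of neutrophil elastase, had 1.95, 23.2, 10.2 and 24.01 in CTRL and 32.0, 266, 82.8, 59.3 and 75.3 in MC. It gave 2.78 (SE 0.66) with all libraries, 2.12 without CTRL 17 and CTRL 44 and 2.42 without MC 6, MC 41 and MC 48. DIO2, the deiodinase that activates thyroid hormone, had 55.6 to 122 in CTRL and 161 to 535 in MC (1.53, SE 0.36, and 0.82 without the 3 MC libraries). Murine Dio2, a gene of the brown adipocyte list, gave 1.44, and MC 6, MC 41 and MC 48 were highest in either genome. Whether the human DIO2 counts came from tumor cells was not tested. PI3 and DIO2 did not overlap either.

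The other human genes passed by DESeq2 were high in some tumors of a group. MYH7 and LMOD2, a myosin and a leiomodin of striated muscle, had 0 counts in all 4 CTRL libraries and in MC 6, 42 and 59, and 492 and 218 in MC 41 and 112 and 86.8 in MC 48. MTRNR2L10, whose sequence resembles mitochondrial ribosomal RNA, had 29472 in MC 41 and 5516 in MC 6, against 520 to 832 elsewhere. ENSG00000130600 had 24.4 to 215 in CTRL and 1041, 442, 197, 474 and 211 in MC 6, 41, 42, 48 and 59, and ENSG00000237166, the 1 lower gene, had 245 and 142 in CTRL 17 and CTRL 44 and at most 13.7 in the other 7 libraries. Without CTRL 17 and CTRL 44 the latter gave −0.29 in place of −3.35, and without MC 6, MC 41 and MC 48 the former gave 1.04 in place of 2.22. Both lack a symbol in the tables, as do 2 further genes passed as higher, which had log2 fold changes of 3.52 and 3.13, and 0.57 and 0.39 without MC 6, MC 41 and MC 48.

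Further human genes were higher in every MC tumor. They were GCC1, a Golgi protein (219 to 437 against 458 to 589), P4HA2, a collagen prolyl hydroxylase (393 to 750 against 859 to 1011), and ATP6V0E2, a proton pump subunit (149 to 234 against 246 to 443). NPC2, which carries cholesterol out of lysosomes, had 2328 to 5082 in CTRL and 5242 to 9439 in MC, and CPT2, a mitochondrial carnitine palmitoyltransferase, had 66.4 to 119 and 126 to 156. The identifier ENSG00000277147 had 5.86 to 34.5 in CTRL and 39.1 to 65.9 in MC. The log2 fold changes of these 6 genes ran from 0.60 to 1.22, and DESeq2 passed none of them. Without CTRL 17 and CTRL 44 they were 0.45 for GCC1, 0.33 for P4HA2, 0.48 for ATP6V0E2, 0.37 for NPC2, 0.39 for CPT2 and 0.70 for ENSG00000277147. In each the lowest CTRL value was that of CTRL 17 or CTRL 44.

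Among human genes lower in every MC tumor, FRMD4A, a polarity scaffold, had 579, 376, 986 and 424 normalized counts in CTRL 17, 31, 44 and 70 and 247 to 319 in MC (−0.98, SE 0.24, edgeR adjusted p = 0.406, and −0.42 without CTRL 17 and CTRL 44). ANKRD28, a phosphatase subunit, had 997 to 2331 in CTRL and 821 to 943 in MC. RNF182, a ubiquitin ligase, had 53.3 to 239 and 23.3 to 47.4. Without CTRL 17 and CTRL 44 ANKRD28 went from −0.66 to −0.19 and RNF182 from −1.82 to −0.52. CTRL 44 was the highest library for all 3. PQLC3, INPP5F, a phosphoinositide phosphatase, and MTA3, a subunit of a chromatin-remodeling complex, were likewise highest in CTRL 44, with log2 fold changes of −0.99, −0.74 and −0.64, and −0.49, −0.20 and −0.31 without CTRL 17 and CTRL 44. DHX35, a helicase, and POLI, a translesion DNA polymerase, had more even CTRL values (113 to 157 and 54.4 to 69.3) and MC values of 59.4 to 99.6 and 26.2 to 47.96. Without CTRL 17 and CTRL 44 their log2 fold changes were −0.69 and −0.56, close to the −0.74 and −0.65 with all libraries.

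Tumor keratin, interferon and antigen presentation genes were higher in MC on average and followed the split within CTRL. All 20 keratin and cornified epithelium genes tested were higher (median 0.89, against −0.02 for all human genes), 9 of them at an unadjusted edgeR p below 0.05 against 4.79%, and the median was 0.09 without CTRL 17 and CTRL 44. KRT17, a keratin of basal epithelium, had 40.99, 2931, 772 and 2378 normalized counts in CTRL and 3151 to 4566 in MC, without overlap (1.35, SE 0.56). KRT5 had 0.98 in CTRL 17 and 260 in CTRL 44, against 795 and 1384 in CTRL 70 and CTRL 31 and 1012 to 1256 in MC. KRT81, KRT19 and KRT7 were lowest in CTRL 17 and overlapped.

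All 37 interferon-stimulated genes were higher in MC, with a median of 0.65 and 12 at an unadjusted edgeR p below 0.05 against 4.79% of all human genes, and the median was 0.03 without CTRL 17 and CTRL 44. ISG15, a ubiquitin-like protein, had 582, 2966, 911 and 2305 normalized counts in CTRL and 2613, 4192, 2152, 3262 and 3542 in MC (0.90, SE 0.33, edgeR adjusted p = 0.406). CTRL 31 and CTRL 70 lay within the MC range. IFI6, IFI27 and MX1, further interferon-induced proteins, had 393, 917 and 59.5 in CTRL 17, whereas their MC values began at 11641, 10449 and 2481. IFI6 and MX1 had 16594 and 3480 in CTRL 31 and 12512 and 2868 in CTRL 70, within the MC range. Of 15 genes of MHC class I presentation 13 were higher (median 0.37, and 0.12 without CTRL 17 and CTRL 44). B2M, the light chain of class I, had 7227 in CTRL 17, 14739 to 16504 in the other CTRL tumors and 14934 to 20427 in MC. HLA-B ran from 1905 to 10043 in CTRL and from 7708 to 12905 in MC. Murine interferon-stimulated genes were on the other side of 0 in the same tumors, as given above.

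**Figure D5:**
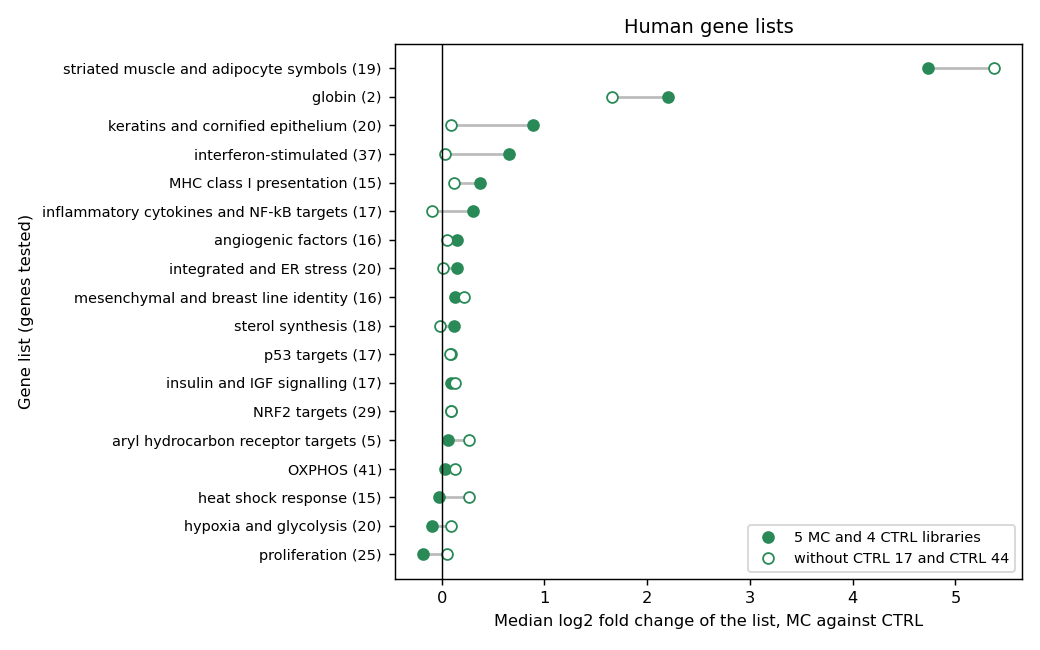
Median log2 fold change, MC against CTRL, of each human gene list with all 9 libraries (filled) and without CTRL 17 and CTRL 44 (open), with the number of genes tested in brackets. Keratins went from 0.89 to 0.09 and interferon-stimulated genes from 0.65 to 0.03, and the list of muscle and adipocyte symbols stayed above 4.

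The human lists tied to isothiocyanate action and to cell stress had medians near that of all genes. They were 0.09 for 29 NRF2 targets (16 higher), 0.06 for 5 aryl hydrocarbon receptor targets (3 higher), −0.02 for 15 heat shock genes (6 higher) and 0.15 for 20 genes of integrated and ER stress (13 higher). In each of these 4 lists at most 1 gene had an unadjusted edgeR p below 0.05, against 10.7% of all human genes in either direction. EPHX1, the microsomal epoxide hydrolase, chosen after its values were seen, had 11.7, 31.3, 50.0 and 39.8 normalized counts in CTRL and 85.8, 58.6, 51.8, 60.4 and 59.4 in MC, without overlap. HMOX1, heme oxygenase 1, also chosen in that way, had 51.8 to 85.9 in CTRL, 452 in MC 41 and 47.96 to 88.3 in the other MC tumors. HSP90AB1, an abundant chaperone, had 36516 to 46930 in CTRL and 44673 to 51693 in MC (0.25, SE 0.13).

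Growth and metabolic lists of the tumor cells shifted little. Of 25 proliferation genes 23 were lower in MC with a median of −0.18, and the median was 0.05 without CTRL 17 and CTRL 44. An unadjusted edgeR p below 0.05 was reached by 2 of the lower genes, against 5.93% of all human genes. The medians were −0.09 for hypoxia and glycolysis, 0.09 for p53 targets, 0.03 for oxidative phosphorylation, 0.12 for sterol synthesis, 0.09 for insulin and IGF signaling and 0.15 for angiogenic factors. That of 17 inflammatory and NF-kB genes was 0.30 (12 higher), and −0.10 without CTRL 17 and CTRL 44. ICAM1, a leukocyte adhesion molecule of that list chosen after its values were seen, had 186 and 254 in CTRL 17 and CTRL 44, 667 and 665 in CTRL 31 and CTRL 70, and 669 to 856 in MC. The mesenchymal and breast line identity list had 8 of 16 genes higher and a median of 0.13.

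Other human genes that the study names from these samples overlapped between the groups. IGFBP1, an insulin-like growth factor binding protein, had 1003, 90.3, 620 and 81.8 in CTRL and 32.0 to 271 in MC. CTRL 17 and CTRL 44 lay above every MC tumor and the other CTRL tumors within the MC range.

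SLC2A8, a glucose transporter, had 121 to 161 normalized counts in CTRL and 140 to 177 in MC (0.16, SE 0.14). CYP2J2, an arachidonic acid epoxygenase, and CYP51A1, lanosterol demethylase, had 6.83 to 36.02 and 13.5 to 48.2 in CTRL and 26.2 to 63.6 and 22.6 to 48.7 in MC. PDGFB, a growth factor for pericytes, had 219 to 419 in CTRL and 148 to 613 in MC (0.17, SE 0.35). All of these overlapped.

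Some human values moved with murine ones. Counts on 20 human symbols of striated muscle and adipocytes numbered 14979 in MC 41 and 4332 in MC 48, against 136 to 526 in the other 7 libraries. They equaled 8.14% and 17.98% of the counts on their murine namesakes, against 1.62% to 14.5% in the other 7 libraries. All 19 tested were higher in MC with a median of 4.73, and 0.47 without MC 6, MC 41 and MC 48. TTN (titin), the giant sarcomere protein, had 5592 and 1889 normalized human counts in MC 41 and MC 48 and 21.8 to 143 in the other libraries. HBD and HBB, human globin genes, had 1.95 to 16.5 and 14.6 to 51.0 in CTRL and 20.9 to 99.8 and 31.9 to 231 in MC, with MC 6, 41 and 42 highest for both, as for the murine globins. How reads that match both genomes were assigned is not given in the sources used here.

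The ratio of namesakes was nearly fixed for some genes. Raw counts of murine Pdgfb equaled 89.8% to 96.5% of those of human PDGFB in all 9 libraries, although the human counts ran from 102 to 947. Murine Ankrd28 equaled 18.5% to 30.5% of human ANKRD28, and the log2 fold change between MC and CTRL was −0.66 in either genome. For Frmd4a with FRMD4A and Dio2 with DIO2 the ratio varied more, from 33.99% to 120% and from 51.0% to 164%. Their log2 fold changes still had the same sign in either genome, −0.65 with −0.98 and 1.44 with 1.53. Where the ratio was nearly fixed, the tables do not tell tumor from host transcripts.

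The human share of all counts was 66.0 ± 2.85% in CTRL (SD, n = 4) and 61.6 ± 7.83% in MC (n = 5). The difference was −4.48 percentage points (two-sided exact permutation test, p = 0.3492; the smallest p this design allows is 0.0159). MC 41 had 47.8% (95% Wilson interval 47.8% to 47.9%, counting error only), and the other MC libraries 62.3% to 66.2%, within or just below the CTRL range of 64.0% to 70.1%. Without MC 41 the difference was −1.05 points. The sequenced amounts of tumor and host RNA thus overlapped between the groups.

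Whether MC acted alike with and without chemotherapy was tested as an interaction in the same fit. By edgeR 0 murine and 0 human genes passed the 3 criteria, with 1031 and 1600 genes at an unadjusted p below 0.05, and limma voom also passed 0 in each. DESeq2 passed 1 murine and 1 human gene. The human gene was ENSG00000130600, with a log2 interaction of −3.20 (DESeq2 adjusted p = 0.0282). The murine gene was Mybpc1, a myosin-binding protein of striated muscle, named because it was the only one that passed (DESeq2 adjusted p = 0.0477).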

How the data were processed

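Tumor RNA was sequenced as QuantSeq 3′ libraries (50 bp forward reads). Per the labels and methods, the authors aligned reads with BlueBee software and deposited raw counts per gene for the murine (GRCm38) and human genomes. The aligner and the human build are not given in the sources used here. The deposited normalized signal tables equal the raw counts divided by a size factor of each library (submitters' notes: DESeq2 1.22.2). Here, raw counts were filtered with filterByExpr, scaled by TMM and tested with edgeR 4.0.16 (quasi-likelihood F test, Benjamini-Hochberg adjustment) over the 20 libraries of the 4 high-fat groups, separately per genome, with 15011 murine and 16434 human genes. DESeq2 1.42.0 and limma 3.58.1 (voom) were alternatives, the fits without MC 6 and MC 41, without MC 6, MC 41 and MC 48 and without CTRL 17 and CTRL 44 were added after seeing the data, and the fit was tested on simulated data. Nothing states that libraries of a group came from separate cultures of the line, so p-values measure the spread between these tumors. 1 MC + Chemo library with conflicting labels was placed by its title.

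Genes named are, per genome, up to 10 higher and 10 lower with the smallest edgeR p among those with mean count above 30, fold above 1.5 and no overlap between groups, up to 6 members of each list by highest count, the genes named by the study, and human genes passed by DESeq2, except that most identifiers without a symbol are only counted. Others are said to be chosen after their values were seen. The members and gene lists were chosen with earlier results of these data known. No symbol was paired with 2991 murine and 5259 human identifiers. Sequences were not used here. Some genes named by the study are not reported here.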

Additional observations from a re-analysis of the deposited data

Results flagged for a closer look

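Within a group, 28 of 338 sets of values had 1 library far from the rest, by the gap to its nearest neighbor as a share of the whole range (Dixon's ratio, critical values 0.829 for 4 libraries and 0.71 for 5, genes as log2 of the normalized count plus 1). Chance marks about 1 in 20.

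CTRL 17 stood apart most often among the controls. It was lowest for the murine myogenic list (0.95), the endothelial list (0.843), Pecam1 (0.855), Egfl7 (0.875), Plvap (0.891) and human B2M (0.863). It was highest for the murine interferon-stimulated list (0.866) and Ccnb1 (0.887). CTRL 44 was highest for Cox8b (0.909) and human INPP5F (0.866).

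MC 41 was highest for the murine NRF2 list (0.814), the human oxidative phosphorylation list (0.753) and human HMOX1 (0.73). It was lowest for the human share of counts (0.788), Cdk1 (0.82), Frmd4a (0.717), Rab27a (0.754), Plvap (0.783) and Mmp13 (0.891). MC 6 was highest for Kcnj8 (0.858) and human NPC2 (0.734) and lowest for Klre1 (0.812), human FRMD4A (0.798), KRT5 (0.765) and KRT81 (0.812). MC 42 had the most human counts (0.77), MC 59 was lowest for the murine p53 list (0.714) and MC 48 for human ENSG00000237166 (0.897).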

How the results depend on the processing

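The counts of 0 genes past the criteria by edgeR held under limma voom, other scalings, no filter, the fit of CTRL and MC alone, all 24 libraries and MC + Chemo 5 taken as MC. DESeq2 passed 234 murine and 10 human genes, 5 and 1 without CTRL 17 and CTRL 44, and 1 and 1 for the interaction. Leaving out 1 library gave 0 to 1 human genes, the 1 without CTRL 31. The cause was not tested. These log2 fold changes changed sign. Without MC 6 and MC 41, and without MC 6, MC 41 and MC 48, they were −0.57 and −1.19 for Cidea, −0.32 and −0.30 for Fasn, −0.13 and −0.83 for Ucp1, −0.20 and −0.49 for Fabp4 and −0.51 and −1.93 for Lep. Without the 3 libraries CYP51A1 gave −0.13, TTN −0.58 and MTRNR2L10 −0.047. Without CTRL 17 and CTRL 44 they were −0.16 for Rgs5, 0.0029 for Retnla, 0.47 for VIM, −0.24 for CDH1, −0.24 for EPCAM, 0.74 for IGFBP1, 0.61 for ZEB1, −0.0093 for KRT81 and −0.058 for PDGFB. By voom they were −0.46 for Lep, −0.38 for PDGFB, 0.11 for IGFBP1 and 0.185 for ZEB1. Without MC 41 and MC 42 HMOX1 gave −0.021 and PDGFB −0.30. Leaving out 1 library gave −0.038 to 1.87 for Lep, −0.030 to 1.24 for HMOX1 and −0.12 to 0.35 for PDGFB. The groups of 4 and 5 limit what can be passed. No paired analysis was possible because the groups share no replicate numbers.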
